A study of Mus musculus with 8 samples.

Results

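The Bcl2 family is described here through 10 named genes among the 23146 genes counted in mouse embryonic epidermis. They were taken from a list of symbols that was chosen with earlier results of these data known. It holds 3 survival members (Bcl2, Bcl2l1 and Mcl1) and 7 killers (Bcl2l11, Bid, Bad, Bak1, Bmf, Bik and Hrk). Killers that belong to the p53 target module of the series (Bax, Bbc3 and Pmaip1) were kept apart and serve as a comparison. All 10 members were found in the count files, and all 10 passed the filter on low counts that left 16342 genes to test. Hrk passed it only through knockout libraries, with 14 counts in E15.5 replicate 2 and 15 in E17.5 replicate 1.

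RNA was sequenced from epidermis lifted off the dermis in 8 libraries, 2 from each of 4 groups. Control embryos of embryonic days E15.5 and E17.5 carried floxed alleles of Nir, the gene Noc2l, and knockout embryos of both stages carried these alleles together with Krt14-Cre. Cre driven by the keratin 14 promoter acts in basal keratinocytes and their descendants, so fibroblasts, vessels and immune cells in the same preparation keep an intact gene. The labels do not say whether a library came from 1 embryo, a pool or a litter, and the p-values therefore measure the spread between these libraries, which may be technical.

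Bcl2 family proteins decide at the outer membrane of the mitochondrion whether a cell dies by apoptosis. The survival proteins Bcl-2, Bcl-xL (from Bcl2l1) and Mcl-1 hold the killers in check by binding a short helix in them, the BH3 domain. The effector Bak1, like its partner Bax, forms pores through which cytochrome c escapes. The remaining killers are BH3-only proteins that bind the survival proteins, and some of them also switch on the effectors. In skin, Bcl-xL and Mcl-1 are known survival factors of keratinocytes, and Bcl-2 is best known from hair follicles and melanocytes.

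The stretch that all 10 members share is the core of the BH3 domain, a known trait of this family and not a result of these data. The coding sequence of each is printed below from the GENCODE M21 transcript matched to the counted RefSeq transcript (GRCm38), on the coding strand. Capitals mark the 6 codons that a search for leucine, any 3 residues, then glycine, alanine or serine, then aspartate found, and 18 bases stand on each side.
Bcl2: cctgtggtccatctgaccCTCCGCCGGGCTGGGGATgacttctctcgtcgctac
Bcl2l1: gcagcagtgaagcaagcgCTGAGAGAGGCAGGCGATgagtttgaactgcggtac
Mcl1: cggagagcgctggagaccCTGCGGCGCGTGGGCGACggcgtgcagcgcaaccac
Bcl2l11: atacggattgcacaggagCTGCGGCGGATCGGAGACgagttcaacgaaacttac
Bid: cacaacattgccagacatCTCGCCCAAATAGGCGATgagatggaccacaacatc
Bad: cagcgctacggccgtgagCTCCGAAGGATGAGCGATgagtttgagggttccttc
Bak1: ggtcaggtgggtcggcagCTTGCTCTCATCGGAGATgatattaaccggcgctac
Bmf: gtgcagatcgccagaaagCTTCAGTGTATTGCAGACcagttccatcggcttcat
Bik: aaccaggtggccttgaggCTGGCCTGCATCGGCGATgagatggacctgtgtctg
Hrk: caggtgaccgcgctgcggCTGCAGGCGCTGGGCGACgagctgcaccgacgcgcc

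Each of the 10 coding sequences held this pattern once. It is not rare by itself, since 34.2% of the 20322 coding sequences searched the same way held it at least once. The fifth codon of the core encodes glycine in 8 members, serine in Bad and alanine in Bmf, so a search for glycine alone would have missed Bad and Bmf. Between members, from 5 to 14 of the 18 core bases were identical, with the highest number between the survival gene Mcl1 and the killer Bcl2l11 and the lowest between Bcl2l1 and Bmf. Part of this identity is built into the search. All 5 identical bases of Bcl2l1 and Bmf lie in the codons that the pattern sets. The core lies within exon 1 of Bcl2 (chr1:106712584-106712601), exon 2 of Bcl2l1 (chr2:152829706-152829723), exon 1 of Mcl1 (chr3:95659436-95659453), exon 3 of Bcl2l11 (chr2:128147150-128147167) and exon 4 of Bmf (chr2:118545109-118545126). It lies within exon 4 of Bid (chr6:120897298-120897315), exon 3 of Bad (chr19:6950792-6950809), exon 4 of Bak1 (chr17:27022540-27022557), exon 3 of Bik (chr15:83543084-83543101) and exon 1 of Hrk (chr5:118169891-118169908).

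Total gene counts ran from 25226357 to 28895657 per library. Basal and suprabasal keratinocyte marker levels differed strongly between genotypes, and these values stand beside every knockout result given here. Levels are CPM, counts scaled to a common library size, with totals adjusted by edgeR's trimmed mean method (TMM). The 12 basal keratinocyte markers summed to 7570 to 8170 CPM in the 4 control libraries and 1490 to 2320 CPM in the 4 knockout libraries, and the 10 suprabasal markers to 43500 to 94400 against 1180 to 6440 CPM. The 12 dermal fibroblast markers summed to 28900 to 35000 CPM in controls and 80500 to 108000 CPM in knockouts. Erythroid markers summed to 2990 to 10700 against 33700 to 76400 CPM, myeloid markers to 382 to 416 against 850 to 1560 CPM and endothelial markers to 522 to 598 against 948 to 983 CPM. At E15.5 and E17.5, 11 and 11 of 12 basal and 10 and 10 of 10 suprabasal markers fell, while 12 and 11 of 12 fibroblast, 10 and 8 of 10 erythroid, 10 and 10 of 10 tested myeloid and 9 and 9 of 9 endothelial markers rose. Markers of periderm, the outermost embryonic layer, went the other way from the basal and suprabasal lists: 5 and 6 of 7 rose and 1 and 1 fell, with sums of 696 to 849 CPM in controls and 939 to 2490 CPM in knockouts. Of 8 skeletal muscle markers, 6 and 8 rose, with sums of 10700 to 14600 against 18900 to 38600 CPM. Melanocyte markers summed to 317 to 406 CPM in controls and 518 to 655 CPM in knockouts. No marker of these lists was at 0 in all libraries. The part of this shift in the Bcl2 family results was not tested, and in these bulk libraries fewer cells of a type and less RNA per cell cannot be told apart. Noc2l itself stood at 107 and 97.4 CPM in E15.5 controls and 95.6 and 91.6 CPM in E15.5 knockouts, and at 106 and 121 CPM in E17.5 controls and 85.4 and 86.9 CPM in E17.5 knockouts. It did not pass at E15.5 (-0.12 ± 0.10, edgeR adjusted p = 0.33) and fell at E17.5 (-0.39 ± 0.10, edgeR adjusted p = 0.0062), a call lost without E17.5 control replicate 2 (-0.29, adjusted p = 0.051). Which exons were deleted is not stated, so a count over the whole transcript is a weak check of the genotype labels.

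Bcl2 fell in knockout epidermis at both stages, while Mcl1 rose at both stages and Bcl2l1 rose at E15.5. The BH3-only genes Bcl2l11 and Bmf rose at both stages. These calls were not equally firm. Those of Bcl2 and Bcl2l11 held under all 17 alternative analyses at both stages. The Mcl1 call was lost under 11 of 17 at E15.5 and 4 of 17 at E17.5. At E15.5 the Bcl2l1 and Bmf calls were each lost under 2 of 17. At E15.5, 4 of the 10 members rose and 1 fell, against a background of 23.2% of all tested genes risen and 22.3% fallen (45.5% in all). At E17.5, 5 rose and 1 fell, against 26.7% risen and 26.7% fallen (53.5% in all). About every other gene was thus called in these comparisons, and the number of members called is near that background. The calls are from edgeR's quasi-likelihood test with Benjamini-Hochberg adjustment over all genes tested and a threshold of 0.05.

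**Figure D1:**
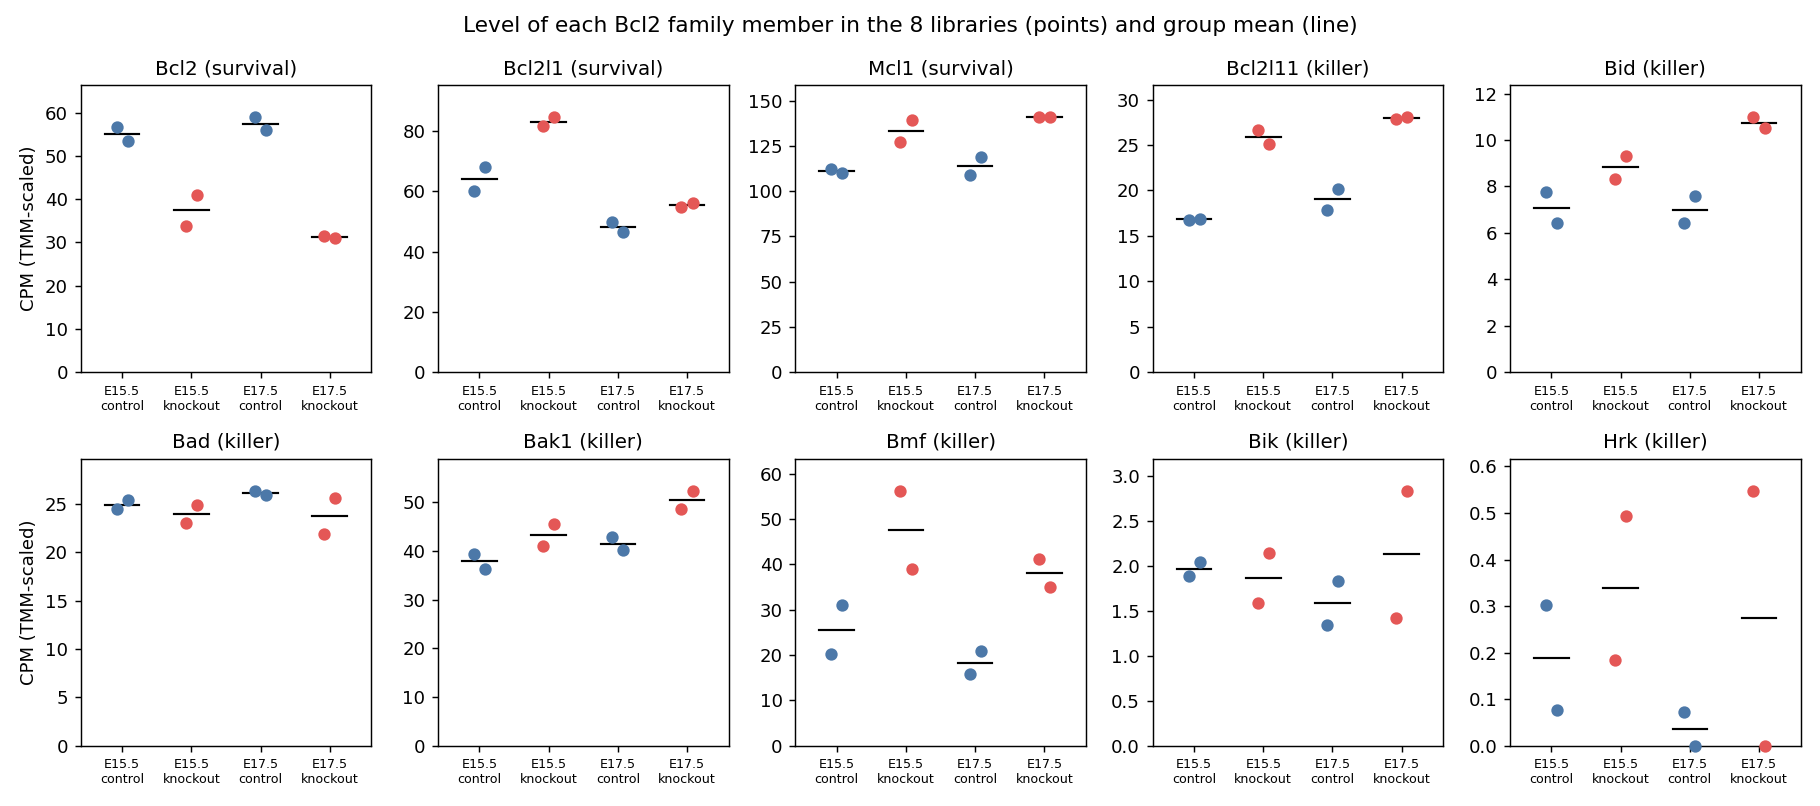
Level of each of the 10 members in CPM on TMM-scaled totals (vertical axis, starting at 0) in the 4 groups (horizontal axis), with 1 point per library, blue for control and red for knockout, and a line at the group mean of 2 libraries. Bcl2 lies lower in all 4 knockout libraries than in any control library, and Bcl2l11 and Bmf lie higher.

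Among the survival members, Bcl2 (chromosome 1, 106538176 to 106714290, minus strand) stood at 56.7 and 53.4 CPM in E15.5 controls, and at 33.7 and 41.0 CPM in E15.5 knockouts. At E17.5 it stood at 59.0 and 55.9 CPM in controls and 31.4 and 30.9 CPM in knockouts. Every knockout library was below every control library, with no overlap at either stage. Of the 7191 transcript bases of Bcl2, 558 are shared with exons of D630008O14Rik on the opposite strand, a gene not analysed here, and no strand setting is stated for the counts. The log2 fold change was -0.56 ± 0.12 (SE, n = 2 libraries per group) at E15.5 (edgeR, adjusted p = 0.0021) and -0.88 ± 0.12 at E17.5 (edgeR, adjusted p = 6.6e-05). At E17.5 the mean level thus went from 57.5 ± 2.25 to 31.1 ± 0.324 CPM (SD, n = 2).

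Bcl2l1 (chromosome 2, 152758732 to 152833803, minus strand), which encodes Bcl-xL, moved the other way at E15.5. It stood at 60.2 and 68.1 CPM in E15.5 controls and 81.6 and 84.8 CPM in E15.5 knockouts, and rose (log2 fold change 0.37 ± 0.10, edgeR adjusted p = 0.010). Leaving out E15.5 control replicate 1 (0.29, adjusted p = 0.090) or E15.5 knockout replicate 2 (0.35, adjusted p = 0.060) ended this call. At E17.5 it stood at 49.7 and 46.4 CPM in controls and 54.7 and 56.3 CPM in knockouts, and the change of 0.21 ± 0.10 did not pass (edgeR, adjusted p = 0.10) and stood at -0.0023 with library totals as the only scaling (adjusted p = 0.99). The libraries of the groups did not overlap at either stage, but the whole E17.5 set lay below the E15.5 set.

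Mcl1 (chromosome 3, 95656944 to 95663179, plus strand), whose short-lived protein binds several BH3-only proteins, had the highest level per kilobase of all members. It stood at 112 and 110 CPM in E15.5 controls and 127 and 139 CPM in E15.5 knockouts, and at 109 and 119 CPM in E17.5 controls and 141 and 141 CPM in E17.5 knockouts. The log2 fold changes were small, 0.26 ± 0.09 at E15.5 (edgeR, adjusted p = 0.043) and 0.31 ± 0.09 at E17.5 (edgeR, adjusted p = 0.016). The E15.5 call did not hold under 11 of 17 alternatives (adjusted p from 0.031 to 0.25 over all of them), including the omission of any E15.5 library. At E17.5 it was lost without control replicate 1 (0.25, adjusted p = 0.096), knockout replicate 1 (0.29, adjusted p = 0.10) or knockout replicate 2 (0.29, adjusted p = 0.089), and with library totals as the only scaling (0.10, adjusted p = 0.47). That scaling moved the median of all genes at E17.5 from -0.02 to -0.23 on the log2 scale, so E17.5 rises of this size depend on it.

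Among the BH3-only killers, Bcl2l11 (chromosome 2, 128126038 to 128162547, plus strand), which encodes Bim, a binder of all survival proteins, rose at both stages. It stood at 16.7 and 16.9 CPM in E15.5 controls and 26.6 and 25.1 CPM in E15.5 knockouts, and at 17.8 and 20.2 CPM in E17.5 controls and 27.9 and 28.1 CPM in E17.5 knockouts. All knockout libraries were above all control libraries, and replicates lay close together. Bcl2l11 rose by 0.62 ± 0.12 on the log2 scale at E15.5 (edgeR, adjusted p = 0.0013) and by 0.56 ± 0.12 at E17.5 (edgeR, adjusted p = 0.0021), and both calls held under all 17 alternatives. With library totals as the only scaling the E17.5 value was 0.34 (adjusted p = 0.036).

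Bmf (chromosome 2, 118528757 to 118549686, minus strand), whose protein is tethered to the actin motor complex and is linked to loss of cell anchorage, had the largest rises among members that passed the test. It stood at 20.2 and 31.1 CPM in E15.5 controls and 56.3 and 39.1 CPM in E15.5 knockouts. At E17.5 it stood at 15.9 and 20.8 CPM in controls and 41.1 and 35.1 CPM in knockouts. The groups did not overlap, but replicates spread more widely than for Bcl2l11. The log2 fold change was 0.89 ± 0.22 at E15.5 (edgeR, adjusted p = 0.0064) and 1.05 ± 0.22 at E17.5 (edgeR, adjusted p = 0.0021). The E15.5 call was lost without control replicate 1 (0.62, adjusted p = 0.066) or knockout replicate 1 (0.60, adjusted p = 0.068).

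Bid (chromosome 6, 120893119 to 120917062, minus strand), which caspase-8 cuts to carry a death receptor signal to mitochondria, stood at 7.74 and 6.41 CPM in E15.5 controls and 8.33 and 9.32 CPM in E15.5 knockouts. At E17.5 it stood at 6.42 and 7.58 CPM in controls and 11 and 10.5 CPM in knockouts. The knockout libraries were higher at both stages without overlap, but the E15.5 change did not pass (0.32 ± 0.18, edgeR adjusted p = 0.17). At E17.5 Bid rose by 0.61 ± 0.18 (edgeR, adjusted p = 0.012). That call was lost without E17.5 control replicate 1 (0.50, adjusted p = 0.082) or knockout replicate 1 (0.56, adjusted p = 0.066) and with library totals as the only scaling (0.40, adjusted p = 0.087).

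Bad (chromosome 19, 6941861 to 6951905, plus strand), a killer held inactive by growth factor signals through phosphorylation, did not pass at either stage. Its levels lay between 21.9 and 26.4 CPM in all 8 libraries, and its log2 fold changes were -0.06 ± 0.12 and -0.14 ± 0.12 (edgeR, adjusted p = 0.71 and 0.36 at E15.5 and E17.5). With library totals as the only scaling the E17.5 change was -0.35 and passed (adjusted p = 0.042). Of its 1452 transcript bases, 517 are shared with exons of Gpr137 on the opposite strand, and without a stated strand setting their reads cannot be separated. Gpr137 stood at 14.8 to 21.7 CPM and did not pass in either comparison.

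The lowest members were Bik and Hrk. Bik (chromosome 15, 83526790 to 83544635, plus strand), a BH3-only gene whose protein sits at the endoplasmic reticulum, had 37 to 79 counts per library, or 1.34 to 2.84 CPM. Its knockout and control libraries overlapped at both stages, and its changes of -0.07 ± 0.38 and 0.42 ± 0.38 did not pass (edgeR, adjusted p = 0.90 and 0.37). Hrk (chromosome 5, 118169764 to 118189478, plus strand), a killer best known in neurons, had 0 to 15 counts per library. At E15.5 it had 8 and 2 counts in controls and 5 and 14 in knockouts. At E17.5 it had 2 and 0 counts in controls and 15 and 0 in knockouts, so all E17.5 knockout counts came from replicate 1. The count of 0 allows up to 0.0963 CPM in E17.5 control replicate 2 and 0.108 CPM in knockout replicate 2 (3 counts per library). The ratio of knockout over control was 1.8 at E15.5 (95% counting interval 0.796 to 4.33) and 7.98 at E17.5 (1.86 to 71.9). These intervals cover counting error only. Hrk passed the filter on low counts only through knockout libraries, so the E17.5 ratio is no support for a rise. Neither comparison passed (edgeR, adjusted p = 0.59 and 0.16). The E17.5 value was -3.12 without knockout replicate 1 and 3.81 without knockout replicate 2.

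Bak1 (chromosome 17, 27019812 to 27028627, minus strand), the only pore-forming effector among the members, stood at 39.4 and 36.4 CPM in E15.5 controls and 41.0 and 45.6 CPM in E15.5 knockouts. At E17.5 it stood at 42.9 and 40.1 CPM in controls and 48.7 and 52.4 CPM in knockouts. The knockout libraries were higher without overlap at each stage. The E15.5 change of 0.19 ± 0.11 did not pass (edgeR, adjusted p = 0.18), and the E17.5 rise of 0.28 ± 0.11 passed narrowly (edgeR, adjusted p = 0.044). The E17.5 call was lost under 14 of 17 alternatives, among them the omission of any single library and DESeq2 (adjusted p = 0.059), with adjusted p from 0.038 to 0.63 over all of them. Ggnbp1, which shares 614 of the 2387 Bak1 transcript bases on the opposite strand, stood at 0.95 to 2.86 CPM.

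**Figure D2:**
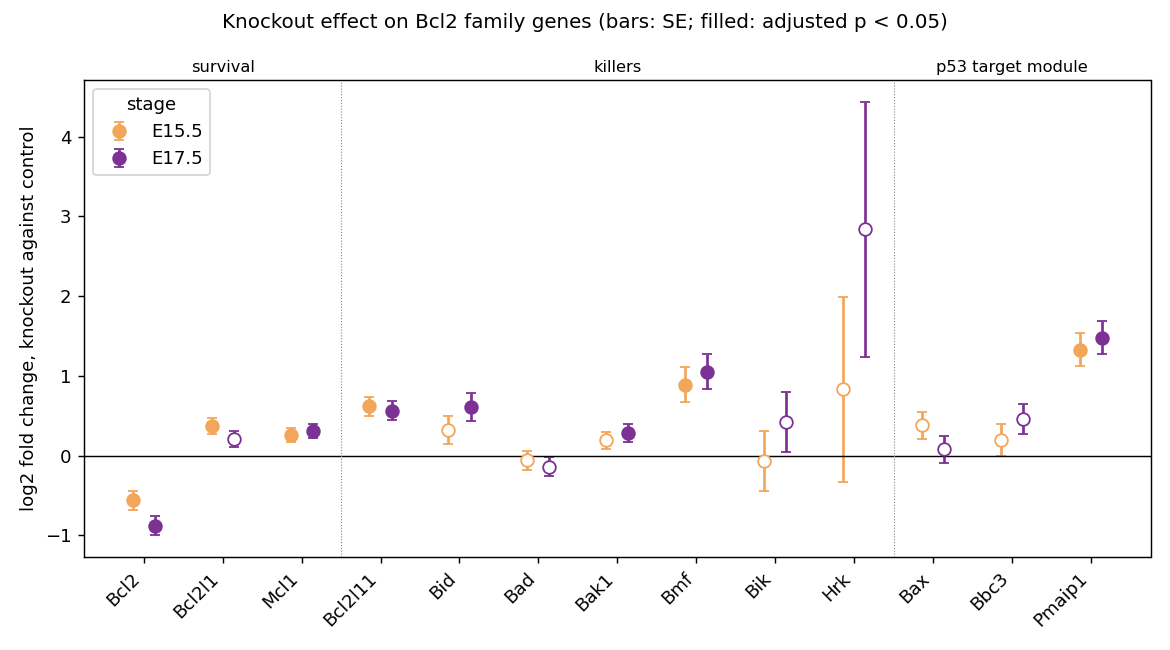
Log2 fold change of knockout against control (vertical axis) for the 10 members and the 3 Bcl2 family genes of the p53 target module (horizontal axis), at E15.5 in orange and E17.5 in purple, with bars for the SE and filled points for an adjusted p under 0.05. Bcl2 lies below 0 at both stages, Bcl2l11 and Bmf lie above it, and Hrk, with 0 to 15 counts per library, has the widest bars.

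None of the 10 members passed the test of the difference between the knockout effects at E17.5 and E15.5. Over the 10 members the adjusted p ran from 0.33 to 0.89 (edgeR), none had an unadjusted p under 0.05, and neither DESeq2 nor limma-voom called any, against 4.35% of all genes called by edgeR (1.88% higher and 2.47% lower at E17.5). The difference for Bcl2 was -0.33 ± 0.16 (edgeR, adjusted p = 0.33). The fall of Bcl2 is therefore not shown to be larger at E17.5 than at E15.5.

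Between the stages, 1 member passed the test in each genotype. Bcl2l1 fell from E15.5 to E17.5 in control epidermis, from 64.2 ± 5.58 to 48.0 ± 2.28 CPM (SD, n = 2; log2 fold change -0.42 ± 0.10, edgeR adjusted p = 0.022), and in knockout epidermis, from 83.2 ± 2.24 to 55.5 ± 1.2 CPM (-0.58 ± 0.10, edgeR adjusted p = 0.0024). Of all genes, 10.9% were called in controls (3.15% risen, 7.7% fallen) and 13.1% in knockouts (6.19% risen, 6.91% fallen). The control call ended when E15.5 control replicate 2 (-0.33, adjusted p = 0.19) or E17.5 control replicate 2 (-0.37, adjusted p = 0.15) was left out, with only the groups compared (-0.40, adjusted p = 0.057) and with library totals as the only scaling (-0.23, adjusted p = 0.18). Bmf showed a change of -0.48 ± 0.22 in controls that did not pass (edgeR, adjusted p = 0.23). The erythroid sum was lower at E17.5, going from 10700 and 7570 CPM to 2990 and 3250 CPM in controls and from 76400 and 42300 CPM to 35600 and 33700 CPM in knockouts. Bcl-xL is known to be abundant in maturing red cells, and the part of these cells in the Bcl2l1 levels was not tested.

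Levels of different genes can be compared only per length, so each member's CPM was divided by the length of its transcript in kilobases. In E15.5 controls the order was Mcl1 (32.1 to 32.9 CPM per kilobase), Bcl2l1 (24.9 to 28.2), Bad (16.9 in its lower library), Bak1 (15.3 to 16.5), Bcl2 (7.42 to 7.88), Bmf (4.35 to 6.71), Bcl2l11 (3.32 to 3.36), Bid (2.93 to 3.54), Bik (2.00 to 2.16) and Hrk (0.0143 to 0.0561). Only Bcl2l11 and Bid overlapped as neighbours in that order. Neighbours that overlapped in other groups were Bad and Bak1 and also Bmf and Bcl2l11 in E17.5 controls, and Bcl2 and Bcl2l11 in E15.5 knockouts. In E17.5 knockouts Bcl2 stood at 4.30 to 4.36 CPM per kilobase, below Bmf (7.56 to 8.86), Bcl2l11 (5.53 to 5.58) and Bid (4.79 to 5), whereas in both control groups it stood above all of them. Bcl2 thus ranked 5 among the members in E17.5 controls and 8 in E17.5 knockouts. The ratio of Bcl2 to Bcl2l11 per kilobase was 2.37 and 2.21 in E15.5 controls and 0.886 and 1.14 in E15.5 knockouts, and 2.32 and 1.93 in E17.5 controls and 0.788 and 0.770 in E17.5 knockouts. This ratio did not overlap between genotypes at either stage. The pair was not among the planned comparisons, and its shift follows from the fall of Bcl2 and the rise of Bcl2l11 given above. The values per kilobase of Bcl2l11 depend on which of its transcripts is used. With its shortest one, of 2490 bases in place of 5036, an alternative chosen after seeing the data, the ratio was 1.25 and 1.15 in E15.5 controls against 0.465 and 0.592 in knockouts, and 1.25 and 1 in E17.5 controls against 0.411 and 0.408 in knockouts, again without overlap. Bcl2l11 then stood at 6.32 and 6.43 CPM per kilobase in E15.5 controls, within the range of Bmf, and at 6.58 and 7.74 in E17.5 controls and 10.6 and 10.5 in E17.5 knockouts, above Bmf in both. Bcl2 also has a shorter transcript, of 2841 bases in place of 7191, with 24.4% to 31.9% of the counts of the longer one. No level per kilobase was computed from it, so the ranks and ratios of Bcl2 are given for the longer transcript only.

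The summed balance of the 10 members moved far less than the Bcl2 to Bcl2l11 ratio, which sets the only member that fell in knockouts against one that rose. The 3 survival members together stood at 65.7 and 67.7 CPM per kilobase in E15.5 controls and 75.5 and 81.5 in E15.5 knockouts, and the 7 killers at 46.7 and 47.9 against 56.0 and 56.3. At E17.5 the survival sum was 60.6 and 61.8 in controls and 68.2 and 69.0 in knockouts, and the killer sum was 47.5 and 48.5 against 56.5 and 60.5. Both sums were thus higher in knockout libraries on this scaling. On library totals alone this held at E15.5, but at E17.5 the survival sum was 66.3 and 69.3 in controls against 64.7 and 66.6 in knockouts, and the killer sum 52.0 and 54.4 against 53.5 and 58.4, so both overlapped. The ratio of the sums is the same under either scaling. Bax, Bbc3 and Pmaip1 are outside the killer sum, and Bax stood above each of the 7 killers in every library. Bax averaged 23.6 CPM per kilobase in E15.5 controls and 30.8 in E15.5 knockouts, and 23.6 and 24.9 at E17.5. No sum with these 3 genes was computed. The ratios therefore do not show whether survival RNA exceeds killer RNA in the whole family, or whether that balance shifted. The ratio of survival over killer sums was 1.41 and 1.41 in E15.5 controls against 1.35 and 1.45 in E15.5 knockouts, which overlap. At E17.5 it was 1.28 and 1.27 in controls against 1.21 and 1.14 in knockouts, which do not overlap. With the shortest Bcl2l11 transcript the E17.5 ratio was 1.2 and 1.18 in controls against 1.11 and 1.05 in knockouts, again without overlap, and the E15.5 libraries again overlapped. Bcl2 made up 11% to 13.5% of the survival sum in the control libraries and 6.21% to 6.99% in the knockout libraries, and Mcl1 and Bcl2l1 made up the rest. Bmf made up 7.23% to 14% of the killer sum in controls and 12.5% to 21.7% in knockouts. These sums describe RNA levels, with no test over the members.

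**Figure D3:**
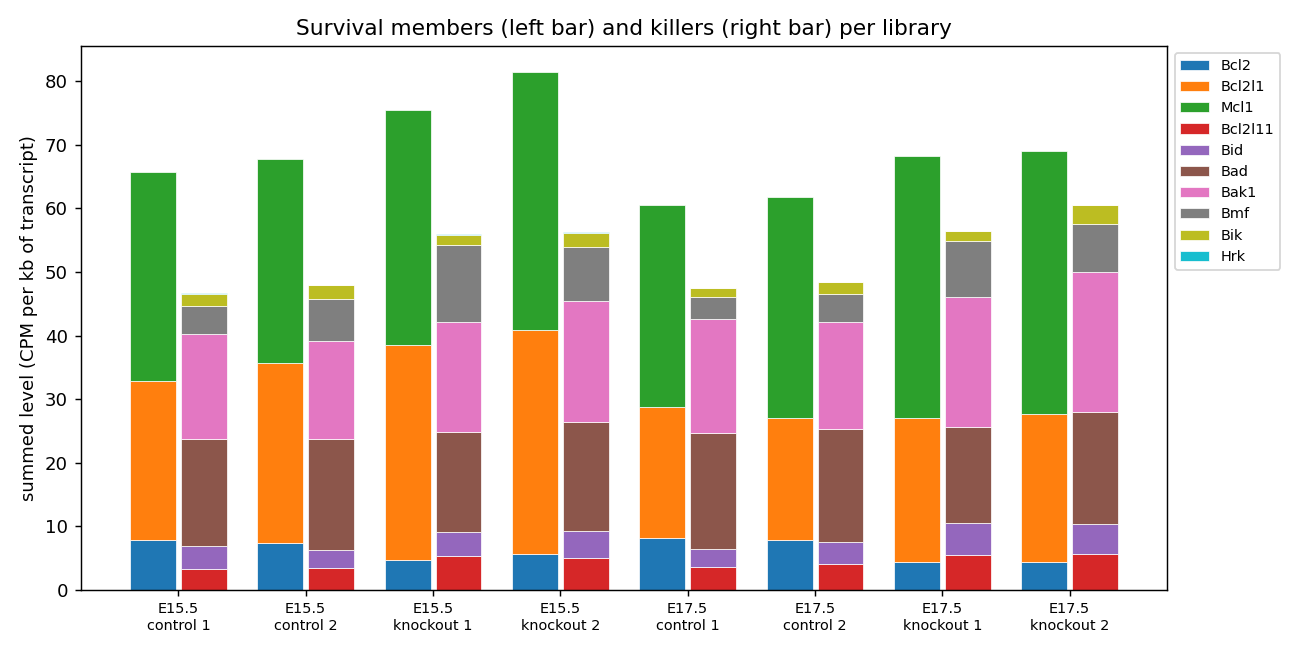
Summed level in CPM per kilobase of transcript (vertical axis, starting at 0) of the 3 survival members (left bar) and the 7 killers (right bar) in each of the 8 libraries (horizontal axis), with each colour 1 member. The Bcl2 segment is smaller in all 4 knockout libraries, and both bars are taller in knockout than in control libraries of the same stage on TMM-scaled totals. At E17.5 this did not hold on library totals alone. Bax, Bbc3 and Pmaip1 are not part of the killer bar.

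The files count transcripts, and each gene is represented by its transcript with the largest total. Of the 10 members, Bcl2 had 2 transcript rows and Bcl2l11 had 3, and the others had 1. The shorter Bcl2 transcript had 447 and 443 counts in E15.5 controls, 276 and 338 in E15.5 knockouts, 464 and 424 in E17.5 controls and 227 and 218 in E17.5 knockouts, which is 24.4% to 31.9% of the longer one in each library. The other rows of Bcl2l11 held 91.9% to 98.6% of the counts of the row used. Rows of a gene share exons and therefore reads, so they are not separate measurements.

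Of the 3 killers of the p53 target module, 1 rose at each stage, against 23.2% and 26.7% of all tested genes risen. Pmaip1, which encodes Noxa, a binder of Mcl-1, stood at 12.6 and 19.4 CPM in E15.5 controls and 33.5 and 47.2 CPM in E15.5 knockouts, and at 9.79 and 8.76 CPM in E17.5 controls and 24.2 and 27.4 CPM in E17.5 knockouts. It rose by 1.33 ± 0.21 on the log2 scale at E15.5 (edgeR, adjusted p = 0.00031) and by 1.48 ± 0.21 at E17.5 (edgeR, adjusted p = 0.00014), which is more than any member that passed the test. Pmaip1 also fell from E15.5 to E17.5 in controls (-0.79 ± 0.22, edgeR adjusted p = 0.038), a call that ended when leaving out E15.5 control replicate 2 (-0.45, adjusted p = 0.35), E17.5 control replicate 1 (-0.87, adjusted p = 0.074) or E17.5 control replicate 2 (-0.71, adjusted p = 0.22), with limma-voom (-0.76, adjusted p = 0.082) and with library totals as the only scaling (-0.60, adjusted p = 0.088). In knockouts the change of Pmaip1 between stages was -0.65 ± 0.20 and did not pass (edgeR, adjusted p = 0.059), while it passed under 8 of 17 alternatives (adjusted p from 0.0088 to 0.43 over all of them). Bbc3, which encodes Puma, had changes of 0.20 ± 0.20 and 0.46 ± 0.19 that did not pass (edgeR, adjusted p = 0.45 and 0.066). Bax had 0.38 ± 0.17 and 0.08 ± 0.17 (edgeR, adjusted p = 0.083 and 0.72), and its E15.5 change passed with only the groups compared (adjusted p = 0.041) and with a replicate block (adjusted p = 0.031).

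Other genes of the pathway were read from lists of relatives, downstream factors, inhibitors and partners. Their counts stand beside 45.5% of all tested genes called at E15.5 (23.2% risen, 22.3% fallen). At E17.5 the share was 53.5% (26.7% risen, 26.7% fallen). Of 9 further relatives, 1 rose and 5 fell at E15.5, with a median log2 fold change of -0.53, and 2 rose and 3 fell at E17.5, with a median of -0.31. The median over all tested genes was -0.02 at E17.5 and 0 to 2 decimals at E15.5. Bok, a relative of Bax and Bak1 that also forms pores, fell at both stages (-0.74 ± 0.16 and -1.11 ± 0.16, edgeR adjusted p = 0.0032 and 0.00016), from 21.3 and 22.4 CPM to 15.2 and 11 CPM at E15.5. Bcl2l14 (-3.70 ± 0.61 and -3.70 ± 0.63, edgeR adjusted p = 0.00047 and 0.00046) fell likewise. Its E17.5 knockout libraries held 12 and 1 counts, and the E17.5 value was -6.30 without knockout replicate 1 and -2.84 without knockout replicate 2. Bcl2l13, the gene of a mitochondrial outer membrane protein, also fell (-0.53 ± 0.10 and -0.50 ± 0.10, edgeR adjusted p = 0.00088 and 0.0011). Of 4 tested survival relatives, 0 passed at E15.5 and 3 rose at E17.5, with medians of 0.51 and 1.35. Bcl2l2, which encodes Bcl-w, stood at 33.5 and 33.4 CPM in E17.5 controls and 46.3 and 45.5 CPM in E17.5 knockouts (0.46 ± 0.10, edgeR adjusted p = 0.0029), a call lost with library totals as the only scaling (0.24, adjusted p = 0.072). The near-identical copies Bcl2a1a (2.61 ± 0.78, edgeR adjusted p = 0.015) and Bcl2a1b (2.25 ± 0.51, edgeR adjusted p = 0.0031), known from myeloid cells, made up the rest. They had at most 42 counts in a library, and their reads cannot be assigned to a copy with certainty. Both needed their E17.5 knockout libraries to pass the filter on low counts. Those held 16 and 25 counts for Bcl2a1a and 30 and 42 for Bcl2a1b, against at most 8 and 10 in other libraries. Their rises, and the median of 1.35 that includes them, are thus not independent of the filter. The Bcl2a1a call was lost without E17.5 control replicate 1 (1.92) or knockout replicate 2 (2.25).

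Downstream of the mitochondrion, 4 of 9 apoptosome and release genes rose and 1 fell at each stage (medians 0.05 and 0.08). This number of calls is near the share over all tested genes (45.5% at E15.5 and 53.5% at E17.5). Apaf1, the scaffold that assembles caspase-9 after cytochrome c release, went from 43.3 and 41.4 to 85.4 and 95.8 CPM at E15.5 and from 35.4 and 37.9 to 81.1 and 84.9 CPM at E17.5 (1.10 ± 0.10 and 1.18 ± 0.10, edgeR adjusted p = 6.9e-06 and 2.7e-06). The mitochondrial protease gene Htra2 rose at both stages (0.58 ± 0.14 and 0.49 ± 0.14, edgeR adjusted p = 0.0055 and 0.011). Its call was lost without E15.5 knockout replicate 1 at E15.5 (0.46) and without E17.5 control replicate 1 (0.33) or knockout replicate 2 (0.46) at E17.5, and with library totals as the only scaling at E17.5 (0.28). Diablo, an antagonist of caspase inhibitors, fell at E15.5 (-0.31 ± 0.12, edgeR adjusted p = 0.048), a call lost under 11 of 17 alternatives, and at E17.5 (-0.44 ± 0.12, edgeR adjusted p = 0.0070), a call lost without E17.5 control replicate 2 (-0.31, adjusted p = 0.063).

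Of 7 tested caspase inhibitors, 3 rose and 0 fell at E15.5 and 3 rose and 1 fell at E17.5 (medians 0.19 and 0.21). These counts too are near the 45.5% and 53.5% of all tested genes called. Birc3, a ubiquitin ligase of the inhibitor of apoptosis family, went from 23.8 and 23.4 to 43.4 and 49.6 CPM at E17.5 (0.98 ± 0.13, edgeR adjusted p = 6.9e-05). Its E15.5 rise (0.35 ± 0.13, edgeR adjusted p = 0.045) was lost under 7 of 17 alternatives, among them the omission of E15.5 control replicate 1 (0.20, adjusted p = 0.31), E15.5 knockout replicate 1 (0.35, adjusted p = 0.13), E15.5 knockout replicate 2 (0.34, adjusted p = 0.12) or E17.5 knockout replicate 2 (0.34, adjusted p = 0.052). Naip2 (1.65 ± 0.32 and 2.16 ± 0.30) and Naip5 (2.17 ± 0.41 and 1.89 ± 0.35), sensors of bacterial proteins known from macrophages, rose at both stages (edgeR, adjusted p at most 0.0014), reached at most 4.82 CPM and are close copies whose reads cannot be assigned with certainty.

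Of 20 partners and modifiers of the members, 2 rose and 5 fell at E15.5 and 4 rose and 5 fell at E17.5 (medians -0.06 and -0.07). Both counts are below the shares over all tested genes (45.5% and 53.5% called). Ywhaz, a 14-3-3 protein that sequesters phosphorylated Bad, went from 440 and 525 to 276 and 286 CPM at E15.5 and from 426 and 397 to 228 and 225 CPM at E17.5 (-0.78 ± 0.11 and -0.86 ± 0.11, edgeR adjusted p = 0.00021 and 7.4e-05). Pim1, a kinase that phosphorylates Bad, fell at both stages (-1.14 ± 0.13 and -0.49 ± 0.13, edgeR adjusted p = 2.5e-05 and 0.0070). Other genes of both kinds went the opposite way, and these were chosen for mention after their values were seen. The 14-3-3 gene Ywhah rose at both stages (0.44 ± 0.11 and 0.40 ± 0.11, edgeR adjusted p = 0.0068 and 0.0093). Its E15.5 call was lost without control replicate 2 (0.36, adjusted p = 0.071), and its E17.5 call without control replicate 1 (0.30, adjusted p = 0.074) or knockout replicate 2 (0.29, adjusted p = 0.11) and with library totals as the only scaling (0.19, adjusted p = 0.19). Akt1, a kinase known to phosphorylate Bad, also rose at both stages (0.32 ± 0.10 and 0.45 ± 0.10, edgeR adjusted p = 0.029 and 0.0039). Its E15.5 call was lost without control replicate 2 (0.25, adjusted p = 0.18) or knockout replicate 1 (0.23, adjusted p = 0.20), and its E17.5 call with library totals as the only scaling (0.23, adjusted p = 0.082). Sphk1, which makes the survival lipid sphingosine 1-phosphate, fell by 3.06 ± 0.14 and 2.13 ± 0.13 on the log2 scale (edgeR, adjusted p = 3.5e-08 and 2.2e-07). Foxo3, a transcription factor known to drive Bcl2l11, stood at 28.3 and 21.0 CPM in E17.5 controls and 51.2 and 48.5 CPM in E17.5 knockouts and rose there (1.02 ± 0.14, edgeR adjusted p = 9e-05), while at E15.5 its change of 0.19 ± 0.14 did not pass (edgeR, adjusted p = 0.29).

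**Figure D4:**
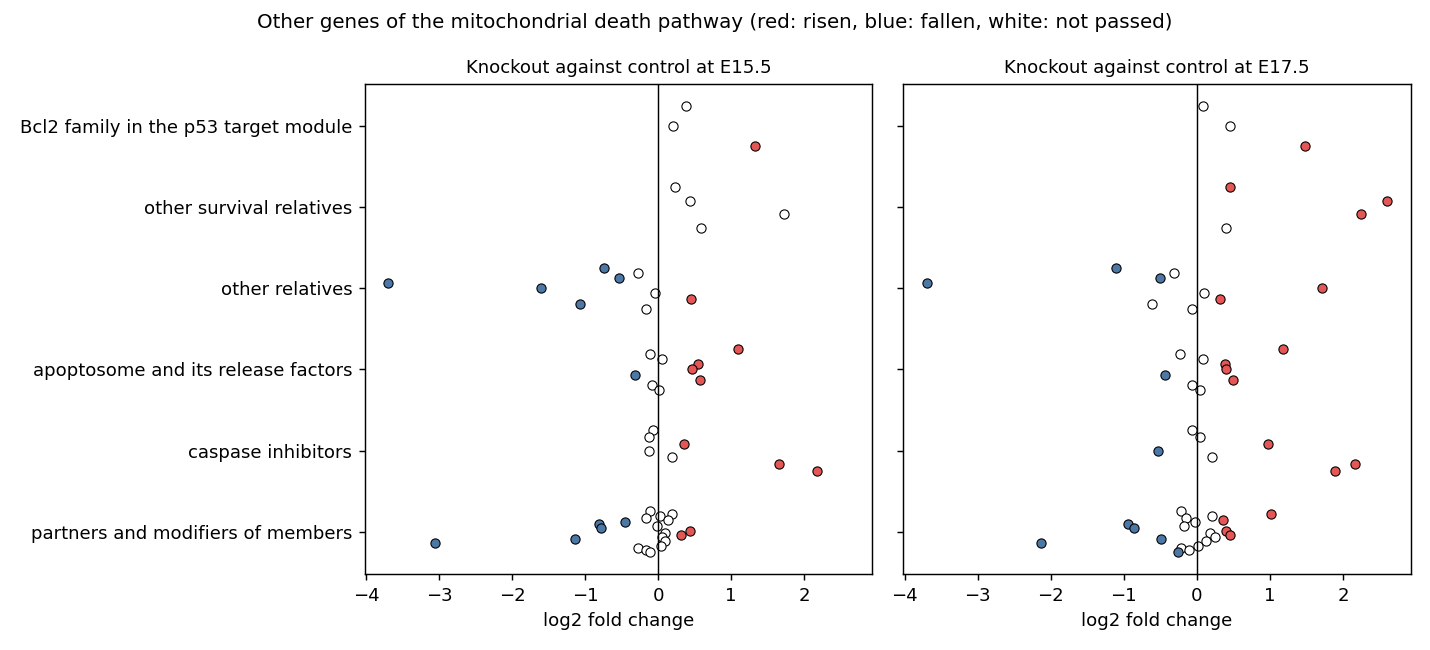
Log2 fold change of knockout against control at E15.5 (left) and E17.5 (right) on the horizontal axis for other genes of the pathway, grouped by list on the vertical axis, with 1 point per gene, red for risen, blue for fallen and white for not passed. Risen and fallen genes lie side by side in the lists of other relatives and of partners, while none of the survival relatives fell. In the p53 target module Pmaip1 is the only filled point at each stage.

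The genes whose levels were most like those of the members over the 8 libraries were sought among 13096 genes whose log2 CPM averaged 1 or more. The libraries fall into 2 genotype clusters and share stages, so these coefficients are a description. Each is the highest of the 13096 genes searched, so high values arise for any member. Hrk, with 0 to 15 counts per library, still reached r = 0.923 (Mier3). Bik reached 0.913 (Zfand2a) and Bad 0.948 (Tmem218). The pattern of Bcl2l11 was most like that of Dpt, one of the dermal fibroblast markers (Pearson r = 0.998, Spearman rho = 1 over 8 libraries), which stood at 248 to 363 CPM in controls and 633 to 812 CPM in knockouts, and next like that of Plat (r = 0.996, rho = 0.95). Bcl2 was most like Ppwd1 (r = 0.995, rho = 0.95) and Rsl1d1 (r = 0.995, rho = 0.98). Bmf was most like the noncoding RNA Norad (r = 0.995, rho = 1), Bcl2l1 like Il17b (r = 0.984, rho = 0.95), Mcl1 like Slc39a1 (r = 0.988, rho = 0.90) and Bid like Rab40b (r = 0.980, rho = 1). Bak1 was most like the interferon-induced genes Eif2ak2 (r = 0.978, rho = 0.98) and Sp100 (r = 0.975, rho = 0.98).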

How the data were processed

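TopHat2 alignment to mm10 and counting with HOMER are recorded in the series design text. The authors deposited whole-number counts per RefSeq transcript with no normalization. The HOMER version, the strand setting and the treatment of reads matching several places are not stated there. A total of 431 of 30521 transcripts had no symbol in the RefSeq or GENCODE M21 tables, held 1.43% to 2.68% of counts and were left out. Each gene was represented by its transcript with the largest total. Gene start and end positions are from the RefSeq table. Strands, exons, overlaps, lengths and the positions of the BH3 cores are from GENCODE M21 (GRCm38, the build of mm10). In 2 joined tables, 8 columns could not be matched to samples by name and were not used.

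Counts were tested with edgeR 4.0.16 in R 4.3.3 (filterByExpr, TMM, quasi-likelihood, 1 mean per group over all 8 libraries). The SE was obtained from each fold change and its F statistic. The fit was tested on simulated data. DESeq2 1.42.0, limma 3.58.1 (voom), other size factors and filters, summed transcripts, only the groups compared, a replicate block and the omission of each library were alternatives. The shortest Bcl2l11 transcript was added as an alternative after seeing the data. The members and lists were chosen with earlier results of these data known. Named genes are all members, Noc2l, the p53 target module killers, up to 3 called genes per pathway list and comparison with the smallest adjusted p, and the 2 genes most like each member, of which a part is printed. 1 result that the rule names is not reported here. Same-numbered replicates of a stage did not deviate together (r = 0.0425 at E15.5 and -0.0698 at E17.5 over 16342 genes), so the numbers were not taken as pairs.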

Additional observations from a re-analysis of the deposited data

Results flagged for a closer look

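Of 52 tested pathway genes outside the members, 3 had a knockout effect that differed between E17.5 and E15.5 in the test of that difference (edgeR, adjusted p under 0.05), a share near the 4.35% of all tested genes called for this difference. Bcl2l15, a relative chosen for mention after its values were seen, had the difference of 3.32 ± 0.59 on the log2 scale (edgeR, adjusted p = 0.0086). It stood at 1.02 and 1.08 CPM in E15.5 controls and 0.296 and 0.387 CPM in E15.5 knockouts, and at 0.544 and 0.610 CPM in E17.5 controls and 1.75 and 2.08 CPM in E17.5 knockouts, so it fell at E15.5 (-1.60 ± 0.44, edgeR adjusted p = 0.011) and rose at E17.5 (1.72 ± 0.39, edgeR adjusted p = 0.0030). It had 8 to 58 counts per library, and the E15.5 call was lost without knockout replicate 1 (-1.43, adjusted p = 0.077). Sphk1 fell less at E17.5, with a difference of 0.93 ± 0.19 (edgeR, adjusted p = 0.019). Leaving out any of 4 libraries ended that call, namely E15.5 control replicate 1 (0.92, adjusted p = 0.067), E15.5 control replicate 2 (0.93, adjusted p = 0.066), E15.5 knockout replicate 2 (0.79, adjusted p = 0.10) and E17.5 knockout replicate 2 (0.81, adjusted p = 0.076), and so did library totals as the only scaling (0.71, adjusted p = 0.060). Foxo3 rose more at E17.5, with a difference of 0.83 ± 0.19 (edgeR, adjusted p = 0.035). That call was lost with library totals as the only scaling (0.62, adjusted p = 0.077) and without any library except E17.5 control replicate 1 (0.63 to 0.91, adjusted p = 0.056 to 0.16).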

How the results depend on the processing

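The Bcl2 fall and the Bcl2l11 rise kept their direction and call at both stages under all 17 alternatives, and the Bmf rise did so at E17.5. Leaving out 1 library at a time gave 1 to 4 risen members at E15.5 and 2 to 4 at E17.5, and 0 to 1 fallen members between stages in controls. It gave 377 to 716 genes called for the difference between stages, 666 to 1776 for the stages in controls and 1160 to 2256 for the stages in knockouts. With library totals as the only scaling, 2 members rose and 2 fell at E17.5, 0 fell between stages in controls, 34.4% in place of 50% of called genes had risen at E17.5, 17.8% in place of 43.3% for the difference between stages and 66.1% in place of 29.0% between stages in controls, and Bcl2l1 (-0.0023) and Bax (-0.14) changed sign at E17.5. With only the groups compared, 0 members fell between stages in controls.

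Signs of genes that did not pass also turned when a library was left out. At E15.5, Bik ran from -0.30 to 0.12 (without knockout replicate 1), Hrk from -0.04 (without knockout replicate 2) to 2.09 and Bcl2a1a from -0.89 (without knockout replicate 1) to 1.12. At E17.5, Bik ran from -0.18 (without knockout replicate 2) to 0.81, Hrk from -3.12 (without knockout replicate 1) to 5.94 and Bax from -0.13 (without knockout replicate 2; -0.09 without control replicate 1) to 0.27. The summed-transcript ratio of survival over killers was 1.29, 1.21, 1.15 and 1.01 in E15.5 controls, E15.5 knockouts, E17.5 controls and E17.5 knockouts, because that sum counts reads of the 3 Bcl2l11 rows repeatedly. With the shortest Bcl2l11 transcript, chosen after seeing the data, it was 1.33, 1.29, 1.19 and 1.08 in the same order. With the replicate block, 4 members rose and 1 fell at each stage, the Bak1 rise at E17.5 was lost (0.28, adjusted p = 0.055), the E15.5 rise of Bax passed (0.37, adjusted p = 0.031) and the fall of Pmaip1 between stages in knockouts passed (-0.62, adjusted p = 0.0088), as it did under 7 other alternatives. Among the 10 members, depth limits Bik (37 to 79 counts per library) and Hrk (0 to 15) most. Other named genes with few counts are Bcl2a1a (1 to 25), Bcl2a1b (2 to 42), Bcl2l14 (1 to 129) and Bcl2l15 (8 to 58).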
